A study of Mus musculus with 12 samples.

Results

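The 9 genes described here encode chemokine receptors that signal through G proteins: Ccr1, Ccr2, Ccr3, Ccr6, Ccr7, Cxcr3, Cxcr4, Cxcr5 and Cx3cr1. They are a list of named genes, with no measured value in the rule that defines it, although earlier results of these data were known when it was drawn up. Each was measured by the 1 probe set that the platform annotation pairs with that symbol alone, among 19938 genes tested in all. The samples were bone marrow derived mast cells, which are marrow cells grown in flasks with stem cell factor (12.5 ng/ml) and interleukin 3 (10 ng/ml) until mast cells dominate. The marrow donors were female mice of 4 to 6 weeks of age. The 12 arrays form 4 groups of 3: ACKR2-/- cells at 10 weeks of culture, wild type C57BL/6 cells at 10 weeks, ACKR2-/- cells at 2 weeks and wild type C57BL/6 cells at 2 weeks. ACKR2-/- mice lack ACKR2, an atypical receptor that takes up inflammatory CC chemokines without G protein signalling; no source used here gives how the allele was made or its background strain. Some 2-week cultures were enriched for cells with CD117, the product of Kit, on an antibody column, and the labels do not say whether these arrays include them. Values are log2 signals after RMA, so a difference of 1 is a 2-fold difference in signal.

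Chemokines are small secreted proteins that guide white blood cells, and a cell follows those for which it carries the receptor. A bound receptor activates Gi proteins, the cell moves up the gradient, and GRK kinases and arrestins then switch the receptor off. Receptor sets mark cell types: Ccr2 and Cx3cr1 are typical of monocytes, Ccr3 of eosinophils and some mast cells, Cxcr5 and Ccr6 of B cells, Cxcr3 of activated T cells and NK cells, and Ccr7 of naive lymphocytes and migrating dendritic cells. Cxcr4 is carried by many blood cells and holds them in the marrow through its ligand CXCL12.

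Of the 12 arrays, 4 did not show a mast cell profile: all 3 labelled ACKR2-/- 2 weeks and array 3 of those labelled wild type 2 weeks. On these 4 arrays the mean of 11 measured mast cell markers lay between 6.73 and 6.80, against 11.52 to 12.25 on the other 8. Kit read 7.51 to 9.18 on the 4 and 13.61 to 13.90 on the 8, and the IgE receptor gene Fcer1a read 4.83 to 5.47 and 13.74 to 14.14. Markers of B cells (7 genes, mean 9.77 to 12.60 on the 4 and 6.64 to 7.09 on the 8) and of T cells (9 genes, mean 8.51 to 12.37 and 6.88 to 7.21) averaged higher there. The T cell mean of 8.51 was on ACKR2-/- 2-week array 3, where Cd2 read 11.62 but Cd3d 6.80 and Cd28 8.13. Dendritic cell markers (10 genes) averaged 10.39 to 10.74 on the 4 arrays and 6.87 to 9.11 on the 8. Xist, expressed in female cells, read 5.77 to 6.23 on the 4 arrays and 13.00 to 13.37 on the 8, while the Y-linked Kdm5d read 10.06 to 10.51 and 6.04 to 6.42, although the labels call the donors female. Array 3 of wild type 2 weeks correlated at 0.996 and 0.997 over all genes with arrays 1 and 2 of ACKR2-/- 2 weeks, and at 0.890 and 0.894 with the wild type 2-week arrays 1 and 2. Groups are therefore named below as labelled, and results that rest on the 4 arrays are also given without array 3 of wild type 2 weeks.

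Ackr2 itself did not check the genotype. Its probe set read 8.35, 8.16 and 8.25 on ACKR2-/- 10-week arrays, 7.88, 8.26 and 8.35 on wild type 10-week arrays, 8.39, 7.79 and 9.43 on ACKR2-/- 2-week arrays and 8.19, 8.29 and 8.38 on wild type 2-week arrays. The difference was 0.08 ± 0.32 (SE) at 10 weeks and 0.25 ± 0.32 at 2 weeks, and the limma adjusted p-values were 0.999 and 0.764. Where this probe set lies relative to the deleted part of the gene is unknown here, as no source used gives it.

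**Figure D1:**
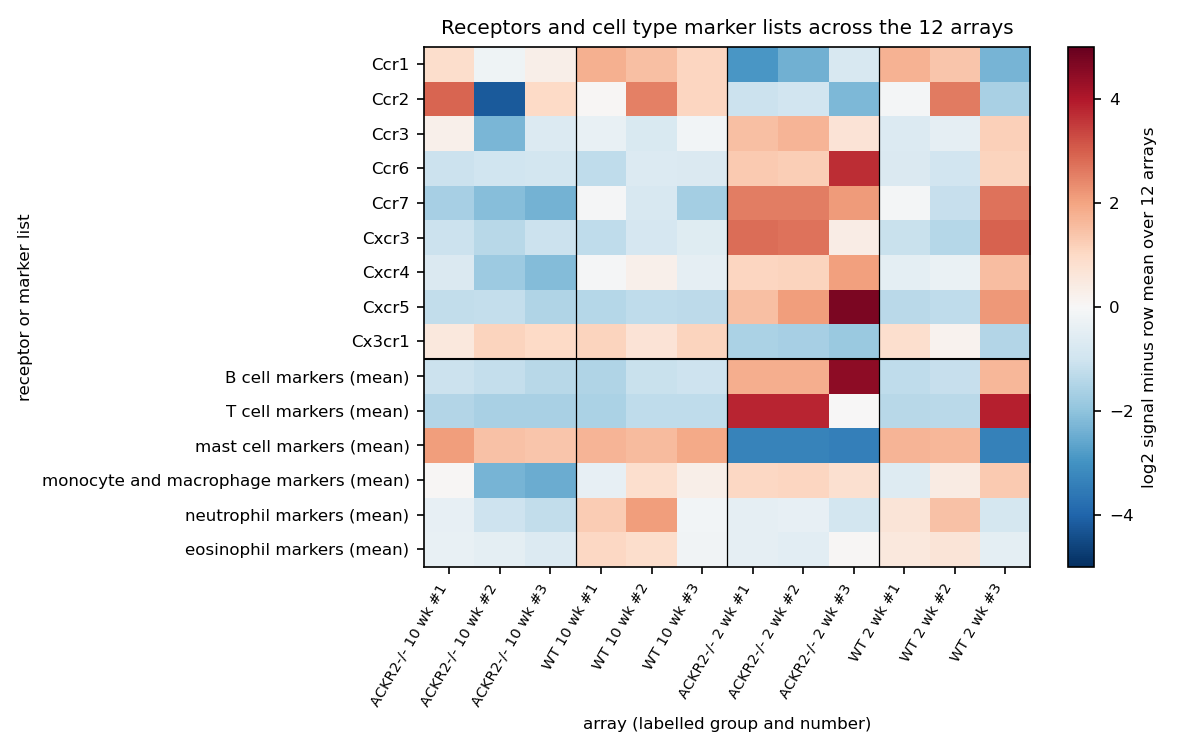
Deviation of each receptor, and of the mean of each marker list, from its own mean over the 12 arrays (log2 units, colour), with 1 column per array grouped by label. The 3 ACKR2-/- 2-week arrays and wild type 2-week array 3 share 1 pattern, with Ccr1 and Cx3cr1 low and 6 receptors high beside low mast cell markers; Ccr2 follows another pattern and is lowest on ACKR2-/- 10-week array 2.

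The receptors split by how they read on the 4 arrays that lacked a mast cell profile. Of the 9, 6 had every one of the 4 arrays above every one of the other 8 (Ccr3, Ccr6, Ccr7, Cxcr3, Cxcr4 and Cxcr5), Ccr1 and Cx3cr1 had all 4 below, and Ccr2 overlapped. The 4 arrays were recognised by their overall profile, to which these genes belong, so this split is a description and carries no test. In bulk RNA, fewer cells of a type and less RNA per cell cannot be told apart.

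Cxcr5, the CXCL13 receptor that takes B cells into follicles, had its highest value on the array with the highest B cell markers. It read 5.52, 5.54 and 5.26 on ACKR2-/- 10-week arrays, 5.31, 5.46 and 5.45 on wild type 10-week arrays, 8.25, 8.83 and 11.46 on ACKR2-/- 2-week arrays and 5.40, 5.49 and 8.92 on wild type 2-week arrays. All 8 arrays with a mast cell profile lay within 5.26 to 5.54, and the 11.46 stood on ACKR2-/- 2-week array 3, where the B cell list averaged 12.60 against 9.93 on arrays 1 and 2. Ccr6, the CCL20 receptor, was also highest on array 3 of ACKR2-/- 2 weeks. Its values were 6.35, 6.42 and 6.50 for ACKR2-/- 10 weeks, 6.15, 6.73 and 6.67 for wild type 10 weeks, 8.71, 8.65 and 11.12 for ACKR2-/- 2 weeks and 6.69, 6.45 and 8.51 for wild type 2 weeks. The other 3 arrays without a mast cell profile lay at 8.51 to 8.71, and the 10-week groups overlapped. The genes most like Cxcr5 over the 12 arrays were Ms4a1 (Pearson r 0.996), Fcrl1 (0.994) and Cd22 (0.994), and those most like Ccr6 were Pax5 (0.997), Fcrl1 (0.996) and Cacna1e (0.995). Ms4a1, Cd22 and Pax5 are B cell genes of the marker list, and all 12 arrays fall into separate clusters, so such r values describe the split between arrays.

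Cxcr3, the receptor for the interferon-induced CXCL9 and CXCL10, ran the other way among the same 4 arrays. Its values were 7.97, 7.65 and 7.96 on ACKR2-/- 10-week arrays, 7.77, 8.21 and 8.43 on wild type 10-week arrays, 11.83, 11.78 and 9.43 on ACKR2-/- 2-week arrays and 7.96, 7.63 and 12.02 on wild type 2-week arrays. Array 3 of ACKR2-/- 2 weeks, highest for Cxcr5 and Ccr6, was the lowest of the 4 for Cxcr3, and its T cell list averaged 8.51 against 12.31 to 12.37 on the other 3. The genes most like Cxcr3 were Prf1 (0.994), Cd3e (0.994) and Samd3 (0.993); Prf1 encodes perforin of cytotoxic cells and Cd3e a chain of the T cell receptor complex. Ccr7, which brings lymphocytes and dendritic cells to lymph nodes, was high on all 4 alike. It read 8.69, 8.21 and 7.97 on ACKR2-/- 10-week arrays, 10.29, 9.54 and 8.63 on wild type 10-week arrays, 12.91, 12.91 and 12.45 on ACKR2-/- 2-week arrays and 10.23, 9.17 and 13.03 on wild type 2-week arrays. The 4 arrays lay within 12.45 to 13.03, and the genes most like Ccr7 were Itga9 (0.990), Irf7 (0.987) and Sema6d (0.987). What part the lymphocyte and dendritic cell markers have in these values was not tested.

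**Figure D2:**
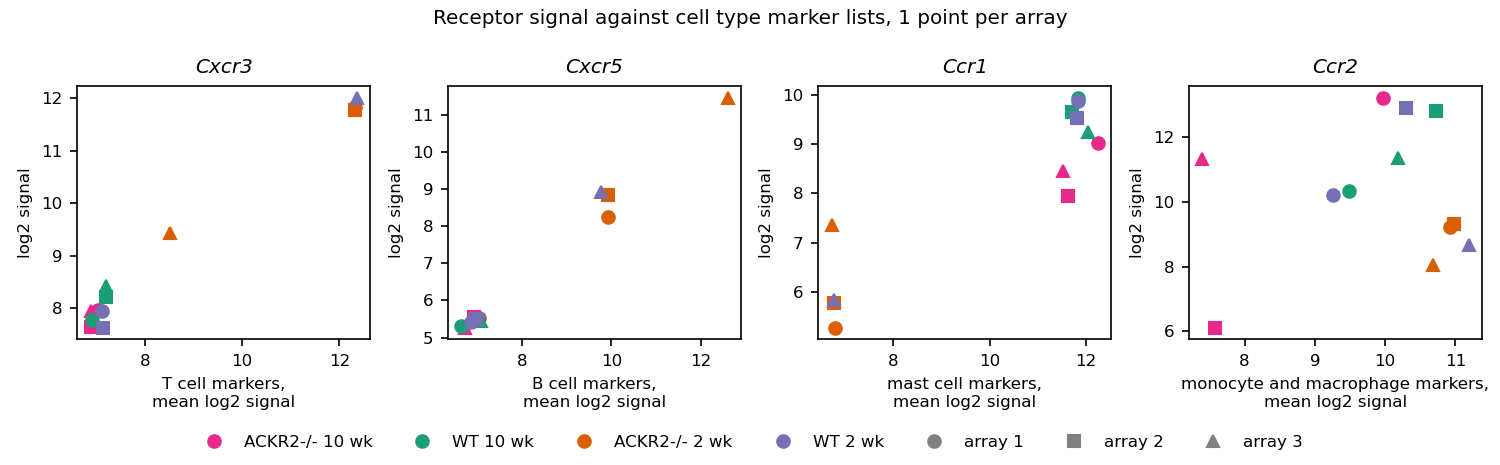
Receptor log2 signal (vertical) against the mean log2 signal of a cell type marker list (horizontal), 1 point per array, coloured by labelled group and shaped by array number. Cxcr3 and Cxcr5 line up with the T cell and B cell lists; Ccr1 is at or below 7.36 on the 4 arrays with mast cell means of 6.80 or less; Ccr2 spans 6.11 to 11.31 on the 2 arrays with the lowest monocyte and macrophage means.

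Cxcr4 and Ccr3 were also higher on the 4 arrays but varied among the mast cell arrays too. Cxcr4, the CXCL12 receptor, read 9.31, 8.20 and 7.86 on ACKR2-/- 10-week arrays, 9.96, 10.27 and 9.59 on wild type 10-week arrays, 11.11, 11.15 and 12.09 on ACKR2-/- 2-week arrays and 9.56, 9.72 and 11.57 on wild type 2-week arrays. All ACKR2-/- 10-week arrays were below every other array. The genes most like it over 12 arrays were Dusp22 (0.983), Terc (0.980) and Ano10 (0.976). Ccr3, the receptor for the eotaxins CCL11 and CCL24, read 9.60, 7.08 and 8.65 on ACKR2-/- 10-week arrays, 8.99, 8.59 and 9.21 on wild type 10-week arrays, 10.87, 11.07 and 10.04 on ACKR2-/- 2-week arrays and 8.67, 8.90 and 10.55 on wild type 2-week arrays. The lowest value, 7.08, was on ACKR2-/- 10-week array 2. Eosinophil markers (6 genes) averaged 6.84 to 7.40 on the 4 arrays where Ccr3 was highest and 6.68 to 8.40 on the other 8. These ranges overlapped, and the part of the markers in the Ccr3 values was not tested. C2 (0.964), Gbp8 (0.954) and Paip2b (0.953) were the genes most like Ccr3.

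Ccr1 and Cx3cr1 were the 2 receptors lower on the 4 arrays. Ccr1, which binds CCL3 and CCL5 and is carried by myeloid cells, read 9.04, 7.95 and 8.46 on ACKR2-/- 10-week arrays, 9.95, 9.65 and 9.25 on wild type 10-week arrays, 5.26, 5.78 and 7.36 on ACKR2-/- 2-week arrays and 9.88, 9.54 and 5.83 on wild type 2-week arrays. Within the 8 mast cell arrays, the 3 ACKR2-/- 10-week arrays were the lowest. Cx3cr1, the receptor for the membrane-bound chemokine CX3CL1, read 10.63, 11.24 and 11.09 on ACKR2-/- 10-week arrays, 11.23, 10.77 and 11.22 on wild type 10-week arrays, 8.52, 8.44 and 8.24 on ACKR2-/- 2-week arrays and 10.97, 10.30 and 8.64 on wild type 2-week arrays. Monocyte and macrophage markers (9 genes) averaged 10.68 to 11.19 on the 4 arrays where Cx3cr1 was lowest, and mast cell markers were low on the same arrays; Cx3cr1 lay within 10.63 to 11.24 on all 6 10-week arrays while the monocyte and macrophage list there ran between 7.39 and 10.73. The genes most like Cx3cr1 were Crtap (0.991), Sil1 (0.990) and Ube2e1 (0.987), and those most like Ccr1 were Mfsd1 (0.983), Trp53inp2 (0.981) and Tceal9 (0.976).

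The sequences upstream of these 2 genes are shown because they moved together; each is the 250 bases before the RefSeq start on GRCm38.p6, read 5′ to 3′ on the gene's strand, with matches to 3 short motifs in capitals. All were searched on both strands. The letters searched for GATA factors were AGATAA, found in 9.99% of 32851 promoters of the same length. Those searched for the myeloid and B cell factor PU.1 were GAGGAA, found in 23.3%, and those for RUNX factors were TGTGGT, found in 14%. Ccr1 lies at chr9:123968693-123968942 and Cx3cr1 at chr9:120068297-120068546, both on the minus strand.
Ccr1: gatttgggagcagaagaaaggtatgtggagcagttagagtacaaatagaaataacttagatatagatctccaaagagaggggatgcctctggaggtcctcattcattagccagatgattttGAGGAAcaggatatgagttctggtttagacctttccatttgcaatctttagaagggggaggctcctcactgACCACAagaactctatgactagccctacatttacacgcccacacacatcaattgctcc
Cx3cr1: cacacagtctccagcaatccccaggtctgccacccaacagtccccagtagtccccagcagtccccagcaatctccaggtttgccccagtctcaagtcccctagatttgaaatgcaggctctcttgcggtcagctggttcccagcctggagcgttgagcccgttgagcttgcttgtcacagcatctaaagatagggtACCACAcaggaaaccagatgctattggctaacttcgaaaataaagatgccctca
The capitals ACCACA are the RUNX motif read on the opposite strand, and start 58 bases before the Ccr1 start and 54 before the Cx3cr1 start. The Ccr1 window also holds the PU.1 motif, 129 bases before the start. Among the 7 receptors with a sequence in the table, Cxcr3, which was high where these 2 were low, held the RUNX motif too, 110 bases before its start, and Cxcr4 held none of the 3 motifs. A match is a run of letters and not a shown binding site.

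Ccr2, the CCL2 and CCL7 receptor that lets monocytes leave the marrow, did not follow the split and varied most. It read 13.22, 6.11 and 11.31 on ACKR2-/- 10-week arrays, 10.35, 12.81 and 11.36 on wild type 10-week arrays, 9.22, 9.33 and 8.06 on ACKR2-/- 2-week arrays and 10.21, 12.90 and 8.67 on wild type 2-week arrays. The ACKR2-/- 10-week group held both the highest and the lowest of the 12 values. Its SD there, 3.68, was the 4th largest of 19938 genes, whose median SD in that group was 0.122. The larger ones, Wfdc17, Akr1c18 and Rnase2a, named here after their values were seen, were high on array 1 alone (11.97 to 12.88) and at 5.35 to 6.27 on arrays 2 and 3. Ccr2 instead separated arrays 2 and 3. Those arrays correlated at 0.994 over all genes and had a median absolute gap of 0.104, yet the Ccr2 gap of 5.20 was the largest of all 19938 genes, ahead of Gpr65 at 3.11 and Pla2g7 at 2.71, also named after their values were seen. Only 115 genes had a gap over 1.

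Monocyte and macrophage markers did not separate those 2 arrays. The 9-gene list averaged 9.96, 7.58 and 7.39 on ACKR2-/- 10-week arrays 1, 2 and 3, so Ccr2 was at 11.31 on the array with the lowest mean of the 12 and at 6.11 on the next lowest. Csf1r, the receptor that macrophages need to survive, read 9.56, 6.82 and 6.62 on the same 3 arrays, and the macrophage surface gene Adgre1 read 10.59, 7.60 and 6.85. On wild type 10-week arrays the list averaged 9.49, 10.73 and 10.18. In wild type cells the Ccr2 value was nearly the same by array number, 10.35 at 10 weeks and 10.21 at 2 weeks on arrays 1, and 12.81 and 12.90 on arrays 2, while arrays 3 read 11.36 and 8.67. Ccr2 had the weakest best match of the 9 receptors over 12 arrays: Bex1 (0.909), Adgre5 (0.883) and Pcp4l1 (0.882). Over the 6 10-week arrays the closest genes were Cldnd2 (0.987), Slc44a2 (0.975) and Ndrg2 (0.966).

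Ccr3 lies next to Ccr2 on chromosome 9 in the RefSeq annotation, and it too was lowest on ACKR2-/- 10-week array 2. Its gap between ACKR2-/- 10-week arrays 3 and 2 was 1.57, the 37th largest of all genes, while Ccr1, on the other side of Ccr1l1, read 8.46 and 7.95. The 250 bases before the start of each gene, shown because these neighbours were both lowest on the same array, lie on the plus strand at chr9:124101933-124102182 for Ccr2 and chr9:124021721-124021970 for Ccr3, with the same motifs in capitals.
Ccr2: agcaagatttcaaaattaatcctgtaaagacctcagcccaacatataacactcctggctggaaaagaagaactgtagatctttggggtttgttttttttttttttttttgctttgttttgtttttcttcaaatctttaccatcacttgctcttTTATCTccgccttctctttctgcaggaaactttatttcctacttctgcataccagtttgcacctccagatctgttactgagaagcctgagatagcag
Ccr3: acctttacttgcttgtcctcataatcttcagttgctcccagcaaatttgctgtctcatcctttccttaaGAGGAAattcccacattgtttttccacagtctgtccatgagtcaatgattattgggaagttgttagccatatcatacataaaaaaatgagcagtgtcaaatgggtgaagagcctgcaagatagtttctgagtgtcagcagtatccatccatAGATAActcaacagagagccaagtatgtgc
Both windows hold the GATA motif, 97 bases before the Ccr2 start (read on the opposite strand) and 30 bases before the Ccr3 start. The Ccr3 window also holds the PU.1 motif, 181 bases before the start, and the Ccr2 window holds no other. Ccr6 is the other receptor with a GATA match, in the upstream window of 1 of its 2 RefSeq starts, and its 12 values peaked on the arrays with B cell markers.

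**Figure D3:**
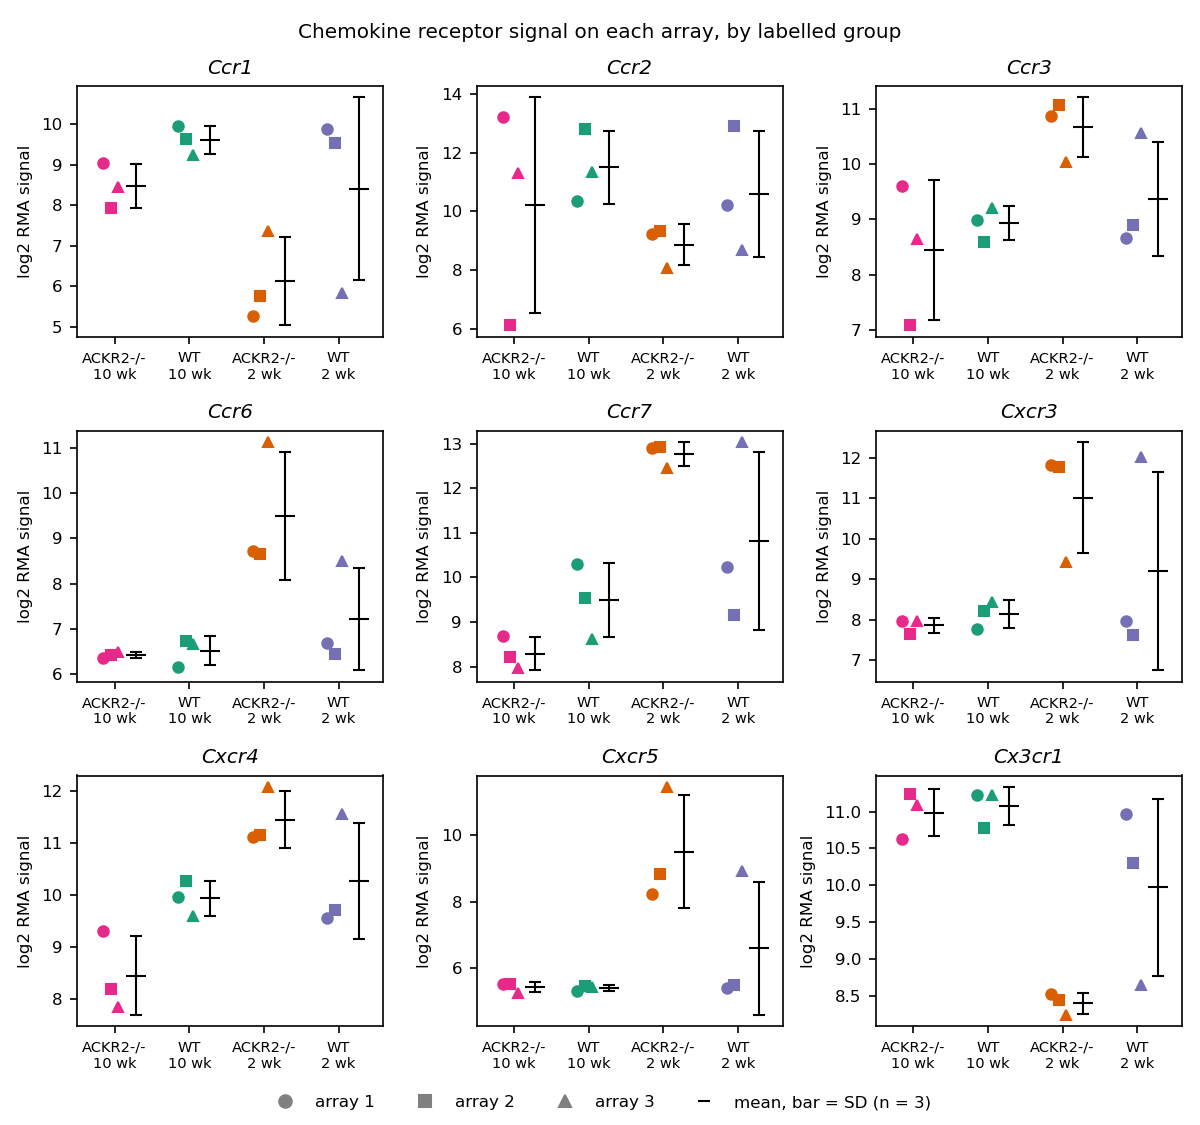
Log2 RMA signal of the 9 receptors on each of the 12 arrays by labelled group, with array number as symbol and the group mean and SD (n = 3) beside the points; each panel has its own vertical axis. Cxcr4 and Ccr1 separate the ACKR2-/- from the wild type 10-week arrays, Ccr2 runs between 6.11 and 13.22 within the ACKR2-/- 10-week group, and wild type 2-week array 3 lies with the ACKR2-/- 2-week arrays.

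At 10 weeks, where all 6 arrays showed a mast cell profile, Cxcr4 and Ccr1 were lower on every ACKR2-/- array than on every wild type array, but no receptor passed the test. Cxcr4 averaged 8.45 ± 0.76 in ACKR2-/- cells and 9.94 ± 0.34 in wild type cells (SD, n = 3 each), a log2 difference of -1.49 ± 0.54 (SE), and limma's adjusted p over all genes was 0.555. Ccr1 averaged 8.48 ± 0.55 in ACKR2-/- cells and 9.62 ± 0.35 in wild type cells, a difference of -1.14 ± 0.93 (adjusted p 0.856). These errors draw on the spread of all 4 groups, and Ccr1 had an SD of 2.25 in wild type 2-week cells. With only the 10-week groups fitted, the SE was 0.36 for Cxcr4 and 0.29 for Ccr1, and limma's adjusted p was 0.380 for both. Without wild type 2-week array 3, the SE was 0.37 for Cxcr4 (limma adjusted p 0.192) and 0.47 for Ccr1 (0.357). Of the 9 receptors, Cxcr4 and Ccr1 were the 2 whose groups did not overlap with ACKR2-/- lower, against 5.98% of all genes in that direction and 14.6% of all genes in either direction. The count with an adjusted p under 0.05 was 0 of 9, against 0% of all genes; at an unadjusted p under 0.05 limma gave 1 receptor and 1566 genes. Differences were below 0 for 8 of the 9, with a median of -0.49, while 51.6% of all genes were above 0 and their median was 0.0076.

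The other 7 receptors had 10-week groups that overlapped. Ccr7 averaged 8.29 ± 0.37 in ACKR2-/- cells and 9.49 ± 0.83 in wild type cells, a difference of -1.19 ± 0.80 (limma adjusted p 0.793). Ccr2 differed by -1.29 ± 1.61 and Ccr3 by -0.49 ± 0.63, and both differences turned positive, to 0.76 and 0.19, without ACKR2-/- 10-week array 2. Cxcr3 (-0.28 ± 1.02), Ccr6 (-0.09 ± 0.66), Cx3cr1 (-0.09 ± 0.46) and Cxcr5 (0.03 ± 0.95) were closest to 0. In the fit over all groups their 95% intervals were wide, from -1.11 to 0.94 for Cx3cr1 and from -2.07 to 2.14 for Cxcr5. That fit also draws on the 2-week groups, where the Cxcr5 SD was 1.71 in ACKR2-/- and 2.01 in wild type cells. With only the 10-week groups fitted, the intervals ran from -0.56 to 0.38 for Cx3cr1 and from -0.27 to 0.33 for Cxcr5. Differences within these narrower ranges were not excluded.

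Most of the Cxcr4 and Ccr1 difference came from 2 of the 3 ACKR2-/- arrays. For Cxcr4, array 1 read 9.31, just below the lowest wild type array at 9.59, and arrays 2 and 3 read 8.20 and 7.86. Array 1 also stood apart from arrays 2 and 3 in the means of other marker lists: dendritic cell markers averaged 8.78, 6.87 and 6.98 on the 3 ACKR2-/- arrays and 8.79 to 9.11 on wild type arrays, and basophil markers (4 genes) averaged 12.15, 9.85 and 9.77, against 12.45 to 12.71 on wild type arrays. In the dendritic cell list the gap was largest for H2-Aa (11.12, 6.23 and 6.31), H2-Ab1 (11.09, 6.44 and 6.79) and Cd74 (11.58, 6.70 and 6.84). It was small for Siglech (7.40, 7.23 and 7.38), Clec9a (6.21, 6.17 and 5.87) and Zbtb46 (7.87, 7.73 and 7.76), and the others lay between. In the basophil list Mcpt8 read 11.81, 7.41 and 7.02 and Prss34 11.30, 7.52 and 7.51. Cd200r3 read 12.67, 11.69 and 11.88 and Basp1 12.81, 12.80 and 12.69. Mast cell markers averaged 12.25, 11.62 and 11.52 on the ACKR2-/- arrays and 11.71 to 12.05 on wild type arrays. The part of these markers in the receptor values was not tested. With the 10-week arrays fitted alone and ACKR2-/- array 1 left out, 2 of the 9 receptors passed, against 2.54% of all genes. They were Cxcr4 at -1.91 ± 0.23 (limma adjusted p 0.0072) and Ccr1 at -1.41 ± 0.25 (adjusted p 0.0334). That choice was made after seeing the data and favours a difference, since array 1 was the nearest to wild type for both. With array 1 left out of the fit over all 4 groups, no receptor passed, against 0.647% of all genes. The limma adjusted p was then 0.235 for Cxcr4 and 0.792 for Ccr1. Over the 6 10-week arrays the genes most like Cxcr4 were Nrp2 (0.997), Olfm1 (0.995) and Cd86 (0.994), and those most like Ccr1 were Pam (0.998), Afap1l1 (0.997) and Ralgds (0.995).

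**Figure D4:**
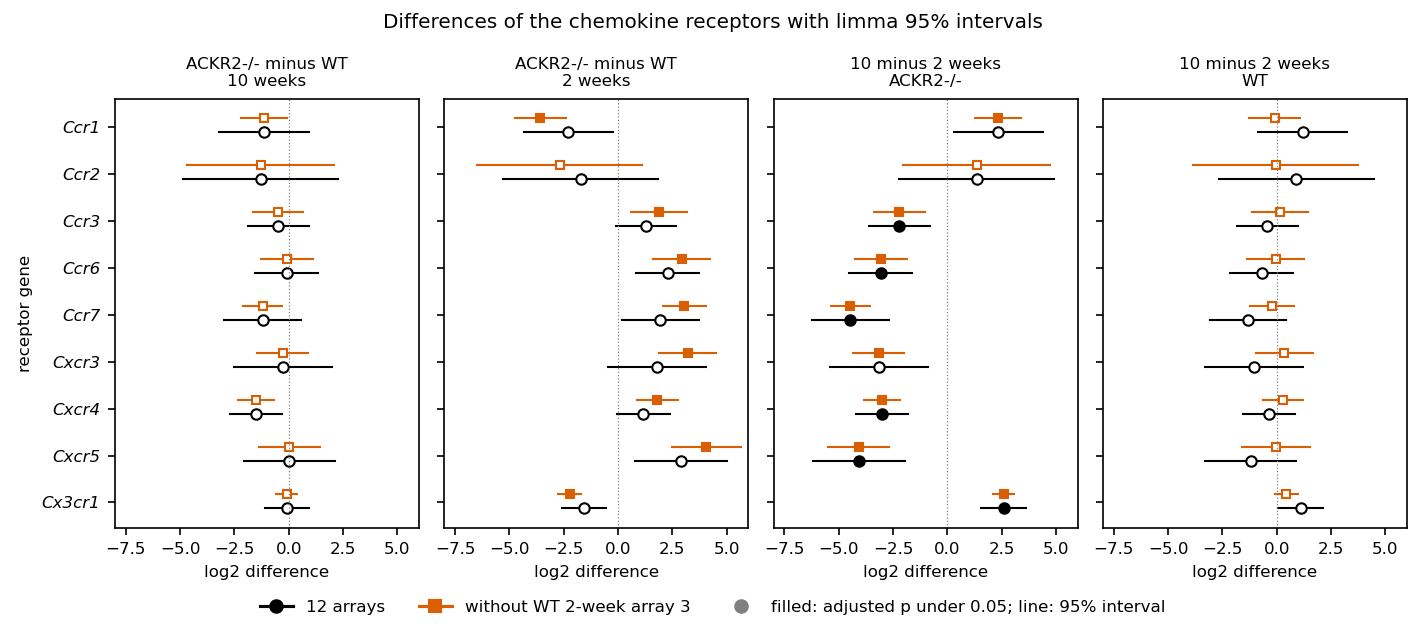
Log2 differences of the 9 receptors in 4 comparisons with limma 95% intervals, from all 12 arrays (black circles) and without wild type 2-week array 3 (orange squares); filled symbols have an adjusted p under 0.05. At 10 weeks the intervals of 8 of the 9 receptors in the 12-array fit include 0, and leaving out 1 array brings 8 of 9 receptors past the threshold in the 2-week comparison.

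At 2 weeks no receptor passed the test, and whether any did depended on wild type array 3, which did not match the other 2 of its group. Ccr6 was higher on every ACKR2-/- array than on every wild type array (9.49 ± 1.41 in ACKR2-/- cells and 7.21 ± 1.13 in wild type cells, SD, n = 3 each), with a difference of 2.28 ± 0.66 (SE). Cx3cr1 was lower on every ACKR2-/- array (8.40 ± 0.14 and 9.97 ± 1.20 in wild type cells), with a difference of -1.57 ± 0.46. Both had a limma adjusted p of 0.225. Counting non-overlap in either direction, this made 2 of 9 receptors against 13.6% of all genes. At an adjusted p under 0.05 the count was 0 of 9 against 0% of all genes, and at an unadjusted p under 0.05 limma gave 5 receptors and 3480 genes.

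Differences for the other receptors at 2 weeks were 2.91 ± 0.95 for Cxcr5, 1.95 ± 0.80 for Ccr7, 1.81 ± 1.02 for Cxcr3, 1.29 ± 0.63 for Ccr3 and 1.17 ± 0.54 for Cxcr4, with -2.28 ± 0.93 for Ccr1 and -1.73 ± 1.61 for Ccr2. Without wild type array 3, 8 of 9 receptors passed, against 23.8% of all genes, and Ccr2 did not (-2.69, limma adjusted p 0.318). Of these, Cxcr5 (4.07), Cxcr3 (3.22), Ccr7 (3.06), Ccr6 (2.93), Ccr3 (1.88) and Cxcr4 (1.81) were higher in ACKR2-/- cells and Ccr1 (-3.58) and Cx3cr1 (-2.23) lower. That comparison sets 3 arrays with lymphocyte markers and no mast cell profile against 2 with a mast cell profile, so genotype and this difference between the arrays cannot be told apart.

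Between 10 and 2 weeks in ACKR2-/- cells, Ccr3, Ccr6, Ccr7, Cxcr4 and Cxcr5 fell and Cx3cr1 rose. Ccr7 changed most, to 8.29 ± 0.37 at 10 weeks against 12.76 ± 0.27 at 2 weeks (SD, n = 3 each), a difference of -4.46 ± 0.80 (SE, limma adjusted p 0.0137). Cxcr5 fell by 4.08 ± 0.95 (limma adjusted p 0.0186), Ccr6 by 3.07 ± 0.66 (0.0150), Cxcr4 by 3.00 ± 0.54 (0.0137) and Ccr3 by 2.21 ± 0.63 (0.0375). The 5 receptors that fell stand against 6.33% of all genes that fell. Cx3cr1 rose by 2.59 ± 0.46 (limma adjusted p 0.0137), to 10.99 ± 0.31 against 8.40 ± 0.14, the 1 receptor of 9 that rose, against 10.5% of all genes that rose.

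The other 3 receptors did not pass in ACKR2-/- cells: Cxcr3 at -3.15 ± 1.02 (limma adjusted p 0.0585), Ccr1 at 2.35 ± 0.93 (0.115) and Ccr2 at 1.34 ± 1.61 (0.644). Without wild type 2-week array 3, which enters this comparison only through the shared estimate of the spread, Cxcr3 (limma adjusted p 0.0013) and Ccr1 (0.0042) also passed, which made 8 of 9 receptors against 25% of all genes. Groups did not overlap for Cxcr3 and Ccr1, as for 44.5% of all genes, and their spread was large at 2 weeks, where array 3 differed from arrays 1 and 2 in its lymphocyte markers. All 3 ACKR2-/- 2-week arrays lacked a mast cell profile and all 3 10-week arrays had one, so time and this difference cannot be told apart. Without ACKR2-/- 10-week array 2, or without array 3, no gene passed; without array 2 the differences were -4.42 for Ccr7, -4.13 for Cxcr5, -3.07 for Ccr6, -2.87 for Cxcr4, -1.53 for Ccr3 and 2.46 for Cx3cr1, with limma adjusted p between 0.0555 and 0.126.

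In wild type cells, where 2 of the 3 2-week arrays had a mast cell profile, no receptor passed between 10 and 2 weeks: 0 of 9, against 0% of all genes, with 1 receptor and 1326 genes at an unadjusted p under 0.05 by limma. Cx3cr1 averaged 11.08 ± 0.26 at 10 weeks and 9.97 ± 1.20 at 2 weeks (SD, n = 3 each), a difference of 1.10 ± 0.46 (SE, adjusted p 0.735). Differences ran between -1.32 ± 0.80 for Ccr7 and 1.20 ± 0.93 for Ccr1. With the 4 arrays without a mast cell profile left out, the differences moved towards 0 and those of Ccr1, Ccr2, Ccr3, Cxcr3 and Cxcr4 changed sign. They were then -0.09 ± 0.32 for Ccr1, -0.05 ± 1.84 for Ccr2, 0.30 ± 0.38 for Cxcr4, 0.35 ± 0.21 for Cxcr3 and 0.44 ± 0.26 for Cx3cr1, and none passed.

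The genotype by week interaction, the difference at 10 weeks minus that at 2 weeks, was not past the threshold for any receptor (0 of 9, against 0% of all genes; 4 receptors and 2271 genes at an unadjusted p under 0.05 by limma). Cxcr4 had the lowest p, with -2.66 ± 0.76 (limma adjusted p 0.424). Without wild type 2-week array 3, 7 of 9 receptors passed, against 15.7% of all genes (3138). The ACKR2-/- 2-week arrays in this contrast all lacked a mast cell profile. An effect of genotype by week and that difference between arrays therefore cannot be told apart. These 5 comparisons share arrays and are not independent of each other.

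Among the receptors' ligands, 5 of 19 measured changed between 10 and 2 weeks in ACKR2-/- cells, 2 higher and 3 lower, against 16.8% of all genes in that comparison (10.5% higher and 6.33% lower). None passed in the other comparisons, where 0% of all genes passed. Ccl2 and Ccl7, ligands of Ccr2, rose. Ccl2 read 13.59, 12.95 and 13.24 at 10 weeks and 6.83, 6.60 and 6.88 at 2 weeks, a difference of 6.49 ± 1.37 (SE, limma adjusted p 0.0145); on wild type arrays it read 13.32, 13.28 and 13.60 at 10 weeks and 13.42, 13.36 and 6.83 at 2 weeks. All 8 mast cell arrays were thus within 12.95 to 13.60 for Ccl2, the array with Ccr2 at 6.11 and that with 13.22 alike. Ccl7 differed by 3.24 ± 0.95 (adjusted p 0.0405). Ccl5, a ligand of Ccr1 and Ccr3 that T cells make, fell by 3.95 ± 0.81 (limma adjusted p 0.0142), Cxcl13, the ligand of Cxcr5, by 1.77 ± 0.51 (0.0401) and Cxcl10, a ligand of Cxcr3, by 1.74 ± 0.46 (0.0288). The ACKR2-/- 2-week arrays all lacked a mast cell profile, so time and that difference cannot be told apart for these ligands. At 10 weeks the ligand with the lowest p between genotypes was Ccl24, a ligand of Ccr3, at 8.19, 7.37 and 7.28 in ACKR2-/- cells and 11.17, 9.84 and 9.92 in wild type cells. The groups did not overlap, and the difference of -2.69 ± 0.62 had a limma adjusted p of 0.480. Eosinophil markers averaged 6.97, 6.84 and 6.68 on these ACKR2-/- arrays and 8.40, 8.25 and 7.19 on the wild type arrays, and their part was not tested. Ccl6, next in p, differed by -2.27 ± 1.09 (adjusted p 0.650).

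Of 8 other signalling chemokine receptors measured, 1 fell between 10 and 2 weeks in ACKR2-/- cells, Ccr9, the receptor of gut-homing lymphocytes, by 1.59 ± 0.41 (limma adjusted p 0.0249), and none rose, against the same shares of 6.33% and 10.5% of all genes. At 10 weeks Cxcr2, the main neutrophil receptor, had the lowest p between genotypes. It read 9.43, 6.00 and 6.11 in ACKR2-/- cells and 10.11, 9.96 and 9.26 in wild type cells, which overlapped through ACKR2-/- array 1, and differed by -2.59 ± 0.85 (limma adjusted p 0.529). Neutrophil markers (10 genes) averaged 7.60, 6.96 and 6.78 on the ACKR2-/- arrays and 9.26, 10.09 and 7.89 on the wild type arrays, and their part was not tested. Ccr9 differed by -0.68 ± 0.41 there (adjusted p 0.762). Of 5 atypical receptors, Ackr1 (3.82 ± 0.60, limma adjusted p 0.0137) and Ccrl2 (1.20 ± 0.35, adjusted p 0.0402) rose between 10 and 2 weeks in ACKR2-/- cells and none fell, against the same shares. On wild type 2-week arrays 1, 2 and 3, Ackr1 read 8.39, 8.20 and 5.97 and Ccrl2 9.43, 9.17 and 8.15. For Ackr1, Ccrl2 and Ccr9, time and the missing mast cell profile of the ACKR2-/- 2-week arrays cannot be told apart. Ackr1, which binds many chemokines without signalling, read 8.61, 9.82 and 10.33 in ACKR2-/- and 8.22, 7.83 and 8.56 in wild type 10-week cells. Every ACKR2-/- array was higher than every wild type array, array 1 only just, and the difference of 1.38 ± 0.60 had a limma adjusted p of 0.611; Ccrl2 differed by -0.43 ± 0.35 (adjusted p 0.852).

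Genes that carry the receptors' signal or end it changed in both directions between 10 and 2 weeks in ACKR2-/- cells: 7 of 25 measured rose and 4 fell, against 10.5% of all genes that rose and 6.33% that fell. The largest were Rgs18, which shortens G protein signals (4.15 ± 1.11, limma adjusted p 0.0299), the PI3-kinase gamma subunit Pik3r6 (2.38 ± 0.53, 0.0167) and the receptor kinase Grk5 (2.32 ± 0.48, 0.0142), which rose, and Pik3r5, the alternative subunit of the same kinase, which fell by 2.60 ± 0.53 (0.0141). Time and the missing mast cell profile of the ACKR2-/- 2-week arrays cannot be told apart here. On wild type 2-week arrays 1, 2 and 3, Rgs18 read 13.12, 12.98 and 8.06 and Pik3r6 9.96, 9.97 and 7.71. Grk5 read 10.30, 10.51 and 8.23 on them, and Pik3r5 9.05, 9.21 and 11.07. At 10 weeks none differed between genotypes past the threshold, and the lowest p were those of Prex1, a Rac activator downstream of G protein beta-gamma, and Plcb2, a phospholipase C. Prex1 read 9.80, 8.51 and 7.89 in ACKR2-/- cells and 10.20, 10.15 and 9.94 in wild type cells, a difference of -1.36 ± 0.42 (limma adjusted p 0.503). Plcb2 differed by 0.35 ± 0.13 (adjusted p 0.563). Like Cxcr4, Cxcr2 and Ccr1, Prex1 was nearest to wild type on ACKR2-/- array 1, the array whose dendritic cell, basophil and monocyte marker lists averaged 8.78, 12.15 and 9.96.

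Beyond Ccr2, the spread of the receptors beside other genes differed between receptors and between the 10-week groups. In ACKR2-/- 10-week cells the SD of Ccr3 was 1.27, exceeded by 0.767% of genes, that of Cxcr4 0.756 (2.21%) and that of Ccr1 0.545 (4.13%). Ccr6, with an SD of 0.073, was exceeded by 75.3% of genes, and Cxcr5, with 0.158, by 36.3%. In wild type 10-week cells Ccr2 (1.24, exceeded by 0.276%) and Ccr7 (0.833, exceeded by 1.4%) varied most, and Cxcr5 least (0.082, exceeded by 89.3%). The SDs of Ccr1, Ccr3 and Cxcr4 were exceeded there by 18.1%, 24.7% and 20.5% of genes. Over the 6 10-week arrays the gene most like Ccr7 was Gapt (0.997), ahead of Lasp1 (0.993) and Irf4 (0.993); that most like Ccr3 was Cir1 (0.977), that most like Cx3cr1 Cyb561d2 (0.972), that most like Ccr6 Il31ra (0.996), that most like Cxcr3 Lce1b (0.996) and that most like Cxcr5 Micalcl (0.980). With 6 arrays and 19938 genes such values come easily, and they are given without a test.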

How the data were processed

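Total RNA (250 ng per sample, per the labels' protocols) was measured on 12 arrays, 3 per group. The labels say that replicates are biological without naming an animal or culture, so p-values measure the spread between these samples. The deposited values are log2 signals that the authors made, per the submitters' processing notes, by RMA (Partek 6.5); genome build and annotation: not given in the sources used here. Of 35399 probe sets, 21789 had 1 gene symbol in the platform annotation, 1621 several and 11989 none; the probe set with the highest mean per gene was kept (19938 genes). Values ran between 2.66 and 14.91, with array medians of 7.76 to 7.90. They carry no detection call, scanner files were not used here, and the number of arrays limits the precision. Levels of different probe sets were not compared.

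Group means were fitted over all 12 arrays by limma (version 3.58.1, R 4.3.3, lmFit, eBayes, Benjamini-Hochberg over all genes, threshold 0.05). The fit was also run on simulated data with the 10-week spread in every group and no array of another profile. That simulation does not cover the unequal spread and the mismatched array of the 2-week groups. Intervals are 95%. Errors of differences are limma's SE and those of means are SD. Named are all 9 receptors; Ackr2; of each pathway list at most 4 genes of largest difference among those past the threshold, or, at 10 weeks, the 2 of lowest p; and per receptor the 3 genes of highest Pearson r. The fifth ligand that passed, Cxcl10, was named after its values were seen. The receptors, lists and tests were chosen with earlier results of these data known. Replicate numbers were checked for pairing by correlating deviations from group means. For wild type 10 against 2 weeks same-numbered arrays gave 0.359, 0.203 and 0.166 and others at most 0.023. Differently numbered 10-week arrays of the 2 genotypes, which share no donor, reached 0.287 and 0.266. Such values therefore cannot show that the numbers mark pairs. Same-numbered arrays in other comparisons did not reach 0.1. The differences, errors and p-values given for wild type over time come from the fit without pairs, and a replicate block was run only as an alternative. Array 3 of wild type 2 weeks lacked a mast cell profile, and array 3 of wild type 10 weeks had it. Xist read 5.77 on the former and 13.11 on the latter. Alternatives were array weights, a replicate block, the mean over probe sets, a filter on low levels (13292 genes kept), median centring, only the groups compared, 8 arrays and leaving out each array. Sequences are RefSeq's for GRCm38.p6, found for 7 of 9 receptors, with neighbours from the same table.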

Additional observations from a re-analysis of the deposited data

How the results depend on the processing

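Counts of genes past the threshold depended on single arrays. Leaving out 1 array at a time, they ran between 0 and 4738 for ACKR2-/- against wild type at 2 weeks, 0 and 129 at 10 weeks (129 without ACKR2-/- 10-week array 1), 0 and 4994 for ACKR2-/- 10 against 2 weeks (3358 with all; 1514 and 1391 without ACKR2-/- 2-week array 1 or 2) and 0 and 3138 for the interaction. Receptors past it ran between 0 and 8, 0 and 0, 0 and 8, and 0 and 7. The highest counts at 2 weeks, in ACKR2-/- cells over time and in the interaction came without wild type 2-week array 3, and the 0 over time without ACKR2-/- 10-week array 2 or 3. Array weights gave 9197 genes and 8 receptors at 2 weeks, 9550 genes over time in ACKR2-/- cells, and 4136 genes and 8 receptors in the interaction; the estimate stopped before converging and gave wild type 10-week array 2 a weight of 1.4e-06. The 10-week arrays alone without ACKR2-/- array 1, chosen after seeing the data, gave 506 genes and 2 receptors.

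Signs changed under these settings; the causes were not tested. Array weights turned Ackr2 to -0.16 at 2 weeks, 0.12 over time in ACKR2-/- cells and 0.17 in the interaction, and, over time in wild type cells, Ccr1 to -0.072, Ccr2 to -0.78, Ccr3 to 0.27 and Cxcr3 to 0.35; Ccr2 turned to -0.013 over time in ACKR2-/- cells. On the 8 arrays with a mast cell profile, wild type over time, Ccr1 was -0.095, Ccr2 -0.052, Ccr3 0.15, Cxcr3 0.35 and Cxcr4 0.30. The 10-week arrays alone without ACKR2-/- array 1 gave Cxcr5 -0.0076 and Cx3cr1 0.089. Leaving out 1 array, ranges that crossed 0 were, at 2 weeks, Ackr2 -0.20 to 0.62; at 10 weeks, Ccr2 -2.80 to 0.76, Ccr3 -1.06 to 0.19, Ccr6 -0.28 to 0.013, Cxcr5 -0.020 to 0.12, Cx3cr1 -0.24 to 0.089 and Ackr2 -0.058 to 0.18; in wild type cells over time, Ccr1 -0.095 to 1.93, Ccr2 -0.052 to 2.06, Ccr3 -0.79 to 0.15, Cxcr3 -1.85 to 0.35, Cxcr4 -0.70 to 0.30 and Ackr2 -0.21 to 0.022; in ACKR2-/- cells over time, Ccr2 -0.16 to 3.39 and Ackr2 -0.66 to 0.16; in the interaction, Ccr2 -1.07 to 2.48 and Ackr2 -0.54 to 0.28. At 10 weeks Cxcr4 kept its sign in every fit run, between -1.91 and -1.19, and Ccr1 between -1.41 and -0.87. With the replicate number as a block, 2897 genes and 6 receptors passed over time in ACKR2-/- cells and 0 genes in each other comparison, and the block in the wild type arrays alone also gave 0; it changed no other count of receptors. Other settings moved no count past 1.5 times. Cxcr5 was among the genes left out by the filter on low levels.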
